A study of Mus musculus with 12 samples.

Results

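The immunity-related GTPases and the guanylate-binding proteins are large GTP-hydrolysing proteins that mouse cells make in quantity after interferon, and 7 of their genes were followed here across dystrophic and healthy hearts. The members were the immunity-related GTPase genes Iigp1, Irgm1, Irgm2, Igtp and Ifi47 and the guanylate-binding protein genes Gbp2 and Gbp3. They were found as the probe sets whose annotation names exactly 1 of these genes, which gave 9 probe sets of the 22690 on the array for 7 of the 12394 genes named there, because Iigp1 and Gbp2 have a pair each. All 9 passed the filter on low signal that left 14932 probe sets for testing. The genes were chosen by the measured 8-week difference between mdx and control hearts, in which several of them had been seen to stand high, so the 8-week values are given as a description, without a test, and the members were tested only in the 10.5-month hearts.

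Total RNA from mouse cardiac muscle was hybridised to 12 Affymetrix arrays, 3 per group. The groups were mdx hearts at 10.5 months, control hearts at 10.5 months, mdx hearts at 8 weeks and control hearts at 8 weeks, and the series calls its controls wild type. The mdx mouse carries a mutation of the dystrophin gene Dmd and lacks the protein in skeletal and cardiac muscle, and it serves as a model of Duchenne muscular dystrophy. The labels give neither strain nor sex, and they do not say whether the 3 arrays of a group came from separate animals or from pools, so the p-values measure only the spread between these arrays.

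Both GTPase families belong to cell-autonomous immunity, the defence that a cell mounts against microbes inside it. Interferon-gamma, acting through its receptor and the kinases Jak1 and Jak2, switches the genes on, and type I interferons induce many of them as well. Irgm1, Irgm2 and Igtp (also called Irgm3) are regulators that sit on the membranes of the cell's own organelles and hold the effector GTPases, such as Iigp1 (Irga6) and Ifi47 (Irgd), inactive, while the effectors and the guanylate-binding proteins load onto vacuoles that hold parasites or bacteria.

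The promoters are shown because these 7 genes share an inducer and several of them stood high on the same arrays. RefSeq windows on the build GRCm38.p6, reaching from 250 bases before to 50 bases after the start of transcription, were at hand for 6 of the 7 members, and Gbp3 had 2 of them. The core of the interferon-stimulated response element, searched as GAAA, any 2 bases and GAAA on both strands, was in a window of 5 of the 6 members, namely Irgm1, Irgm2, Igtp, Gbp2 and Gbp3. Counted by window, 5 of the 7 member windows held it, against 3.44% of all 32851 promoter windows of the same length. The core of the gamma-activated site, searched as TTCNNNGAA on both strands, was found in Irgm2 and Igtp, 2 of the 7 member windows, against 8.3% of all windows. The 100 bases before the start are printed 5′ to 3′ on the gene's strand, with capitals for the letters that match either motif.
Irgm1, chr11:48871421-48871520, minus strand: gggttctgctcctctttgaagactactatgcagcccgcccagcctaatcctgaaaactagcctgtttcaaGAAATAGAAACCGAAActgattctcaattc
Irgm2, chr11:58214877-58214976, plus strand: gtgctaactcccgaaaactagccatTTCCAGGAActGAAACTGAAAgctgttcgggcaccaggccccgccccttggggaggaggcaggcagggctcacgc
Igtp, chr11:58199456-58199555, plus strand: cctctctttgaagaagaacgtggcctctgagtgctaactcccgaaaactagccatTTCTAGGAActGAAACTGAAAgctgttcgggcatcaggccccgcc
Gbp2, chr3:142620563-142620662, plus strand: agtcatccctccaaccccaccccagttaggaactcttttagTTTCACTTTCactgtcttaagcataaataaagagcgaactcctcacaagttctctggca
Gbp3, chr3:142559944-142560043, plus strand: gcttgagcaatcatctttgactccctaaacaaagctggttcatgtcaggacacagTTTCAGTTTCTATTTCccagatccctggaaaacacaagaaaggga

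In Irgm2 and Igtp, which lie close together on chromosome 11, the gamma-activated site core began 75 and 45 bases before the start, and the response element core followed it at 64 and 34 bases. The longest identical run that the windows of these 2 genes share, 61 bases, begins 41 and 11 bases before the start, after both cores. The printed letters around both cores are also the same in these 2 genes, but for C against T. That change lies inside the gamma-activated site core and again just before the 61-base run. The matches of Irgm2 and Igtp are therefore not independent of each other. In Irgm1 the capitals hold 2 overlapping matches of the response element core. Those of Gbp3, also 2 that overlap, and the single one of Gbp2 lie on the opposite strand. Neither core was found in the window of Ifi47 or in the second window of Gbp3, and these matches of letters describe the sequence and say nothing of binding in these hearts.

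The deposited intensities were rescaled to a trimmed mean of 500 on every array and are called signal below. Signal ranks a probe set across arrays, and it does not rank different probe sets against each other. Dmd signal was 195 to 286 in mdx hearts and 796 to 839 in control hearts at 10.5 months, and 159 to 279 in mdx hearts and 607 to 780 in control hearts at 8 weeks, and no mdx array reached a control array. All 10 ventricular myocyte markers were bright. Of 12 markers of fast and extraocular skeletal muscle on the array only Atp2a1 passed the filter, although a record keyword names extraocular muscle. A further listed marker, the myosin gene Myh13, had no probe set annotated to it alone. Within groups the arrays correlated at 0.956 to 0.983 (Pearson r of log2 signal over all probe sets but the Affymetrix controls). Arrays that stood apart were mdx replicate 3 at 10.5 months and mdx replicates 1 and 2 and control replicate 2 at 8 weeks, whose 99th percentile of deposited intensity was 40770 to 53154, against 27563 to 32810 on the others (called a wide signal range here). In 2 of these, mdx replicate 3 at 10.5 months and mdx replicate 1 at 8 weeks, a 3′ to 5′ ratio of an Affymetrix control gene, a measure of RNA integrity, was the highest of the series (1.44 for actin and 0.973 for Gapdh).

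The members' signal at the 2 ages lay on opposite sides of the controls. At 10.5 months all 9 probe sets were lower in mdx than in control hearts on the log2 scale, as were 55.5% of all probe sets, and the median difference over the brightest probe set of each gene was -0.71 on the log2 scale, against -0.02 over the brightest probe sets of all genes tested. At 8 weeks all 9 were higher in mdx hearts, beside 48.3% of all probe sets, with a median of 0.70 over the brightest probe sets and one of -0.01 over those of all genes. That median was 1.33 without mdx replicate 2, 0.38 without mdx replicate 3 and 0.45 with array weights, and over all 9 probe sets it was 1.15. No member passed the test at 10.5 months, where limma with Benjamini-Hochberg adjustment over all tested probe sets called 0 of the 9 and 0.0469% of all probe sets. In these bulk samples, more cells of a type and more RNA per cell cannot be told apart.

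**Figure D1:**
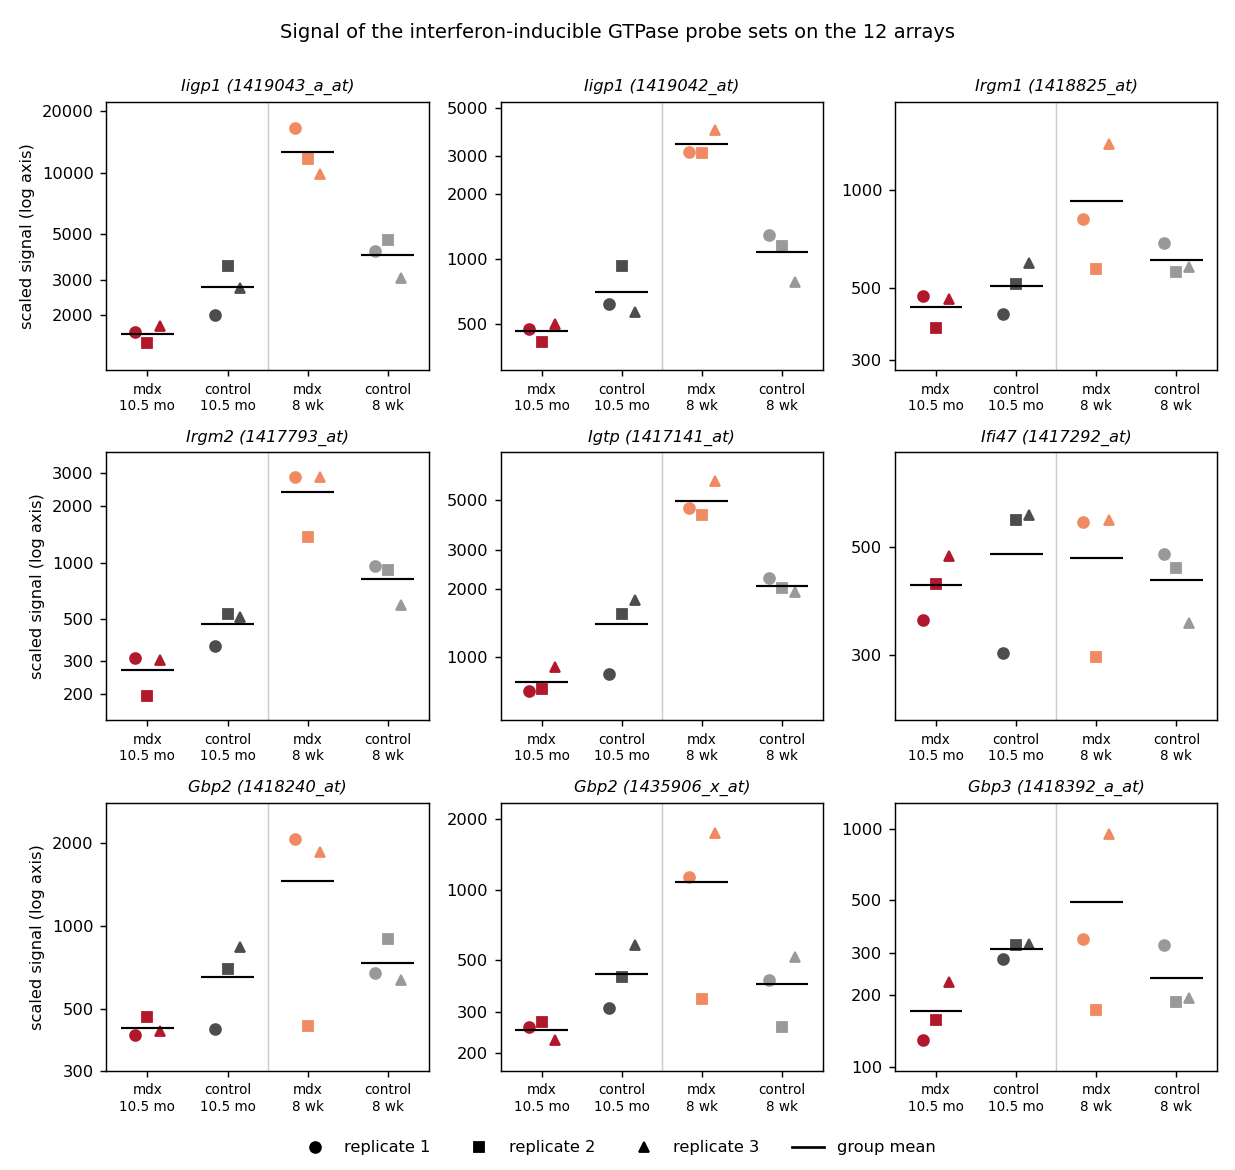
Scaled signal (log axis, one panel per probe set) of the 9 member probe sets on each array, with circles, squares and triangles for replicates 1, 2 and 3 and a line at each group mean. The 8-week mdx arrays of Iigp1, Irgm2 and Igtp all sit above the 8-week controls, while replicate 2 of that group lies among or below the controls for Gbp2, Gbp3 and Ifi47.

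Igtp, the regulator found on the endoplasmic reticulum, had the smallest p of the family at 10.5 months. Its signal was 704, 721 and 906 in mdx hearts, against 840, 1546 and 1799 in control hearts of that age. The groups overlapped by 1 array, since mdx replicate 3 lay above control replicate 1. The difference was -0.76 ± 0.24 (log2, SE of the limma fit, 3 arrays a group), which is 0.591-fold, with an adjusted p of 0.571. At 8 weeks the signal was 4588, 4270 and 6035 in mdx hearts and 2234, 2034 and 1947 in control hearts. Every mdx array lay above every control array at that age, at a fitted ratio of 2.35. Igtp was also the member whose 8-week difference moved little whichever array was left out, between 1.09 and 1.33.

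Irgm2, a regulator of the Golgi encoded near Igtp, gave 309, 195 and 304 in mdx hearts and 358, 535 and 514 in control hearts at 10.5 months. All 3 mdx arrays were below all 3 controls, by -0.74 ± 0.29 on the log2 scale or 0.599-fold (limma, adjusted p = 0.666). Its 8-week signal was 2876, 1379 and 2880 in mdx hearts and 958, 921 and 595 in control hearts. There the mdx arrays stood above the controls without overlap, with a fitted ratio of 2.72, and replicate 2 was the closest to them.

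Irgm1, a regulator of mitochondria and Golgi that is also needed for clearance of mycobacteria in mice, varied less between groups. Its signal was 471, 377 and 464 in mdx hearts and 417, 514 and 597 in control hearts at 10.5 months. These overlapped, and the difference was -0.20 ± 0.25 (log2, limma, adjusted p = 0.89). At 8 weeks it was 816, 573 and 1390 in mdx hearts and 688, 562 and 581 in control hearts. Mdx replicate 3 set most of the 8-week gap, which was 0.49 ± 0.25 on the log2 scale with all arrays and 0.16 without that array.

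Iigp1, an effector that coats the vacuole of Toxoplasma and helps to break it open, had the largest 8-week ratio of the 7 genes. Its brighter probe set read 1654, 1459 and 1768 in mdx hearts and 2004, 3489 and 2738 in control hearts at 10.5 months. The mdx arrays were all below the controls, by -0.71 ± 0.24 or 0.611-fold (log2, limma, adjusted p = 0.587). At 8 weeks the same probe set read 16475, 11684 and 9874 in mdx hearts and 4149, 4706 and 3068 in control hearts, which is a fitted ratio of 3.15 with no overlap. The second probe set of Iigp1, which shares the transcript and is no independent measure, read 473, 414 and 504 in mdx hearts and 621, 931 and 568 in control hearts at 10.5 months. Its 8-week readings were 3143, 3101 and 3972 in mdx hearts and 1300, 1149 and 787 in control hearts. Both probe sets therefore placed the mdx arrays below the controls at the later age and above them at the earlier one, and the second differed by -0.55 ± 0.22 (adjusted p = 0.666) and by 1.65 ± 0.22 at these ages.

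Ifi47, the other effector of the immunity-related family here, showed neither gap. In 10.5-month hearts it read 354, 420 and 481 in mdx and 302, 569 and 583 in control. In 8-week hearts it read 564, 296 and 569 in mdx and 484, 454 and 348 in control. The groups overlapped at both ages, with differences of -0.16 ± 0.27 (limma, adjusted p = 0.927) at 10.5 months and 0.10 ± 0.27 at 8 weeks, and the sign of the 8-week value turned when mdx replicate 1 (-0.04), mdx replicate 3 (-0.05) or control replicate 3 (-0.03) was left out.

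Gbp2, a guanylate-binding protein that gathers on vacuoles and on bacteria, was spread widely among the 8-week mdx arrays. Its brighter probe set read 405, 468 and 417 in mdx hearts and 425, 702 and 841 in control hearts at 10.5 months. That difference was -0.53 ± 0.44 (log2, limma, adjusted p = 0.832), and mdx replicate 2 and control replicate 1 overlapped. Its SE draws on the 8-week arrays as well, and was 0.22 without mdx replicate 2 at 8 weeks (limma, adjusted p = 0.641). At 8 weeks the probe set read 2076, 435 and 1860 in mdx hearts and 680, 898 and 637 in control hearts. Mdx replicates 1 and 3 were above every control and replicate 2 below every one of them, so that the difference of 0.69 ± 0.44 became 1.39 without replicate 2, 0.30 without replicate 1 and 0.38 without replicate 3. The second probe set carries the suffix that Affymetrix gives where some probes may also match other transcripts, and near-identical guanylate-binding genes could add to it. It read 258, 271 and 227 in mdx hearts and 311, 423 and 577 in control hearts at 10.5 months, without overlap, and 1133, 340 and 1743 in mdx hearts and 410, 258 and 516 in control hearts at 8 weeks.

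Gbp3, encoded near Gbp2 on chromosome 3, read 130, 158 and 228 in mdx hearts and 285, 326 and 328 in control hearts at 10.5 months. The mdx arrays were all lower, and the difference of -0.78 ± 0.42 was the largest of the family at that age (log2, limma, adjusted p = 0.703). That SE draws on the 8-week arrays as well. Without mdx replicate 3 at 8 weeks it was 0.26, at the same difference (limma, adjusted p = 0.527). At 8 weeks it read 345, 173 and 953 in mdx hearts and 324, 187 and 195 in control hearts. A single array, mdx replicate 3, stood far above the rest, and the difference of 0.70 ± 0.42 was 0.09 without it and 1.22 without replicate 2.

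Counted over probe sets at 10.5 months, 5 of 9 had all mdx arrays below all control arrays, against 10.6% of all probe sets, and they belonged to Iigp1 (both), Irgm2, Gbp2 (the second) and Gbp3. With 1 probe set per gene the count was 3 of 7. Unadjusted p-values below 0.05 with mdx lower were found for 4 of 9, the pair of Iigp1, Irgm2 and Igtp, against 4.69% of all probe sets. None held after adjustment, and the lowest adjusted p of a member under any other setting was 0.0839, for Iigp1 with array weights. At 8 weeks, where the choice of genes used the same arrays, 4 of 9 had all mdx arrays above all controls, with 9.51% of all probe sets beside them. The 3 probe sets of Iigp1 and Irgm2 did both. Among all probe sets 1420 were above at 8 weeks, and 147 of these (0.984% of all) were also below at 10.5 months. The 8-week part of that pattern comes from the arrays by which the genes were chosen, so the share of 0.984% does not measure how rare it is for them. Probe sets of 1 gene share their transcript, and genes that one cytokine induces are not independent of each other.

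**Figure D2:**
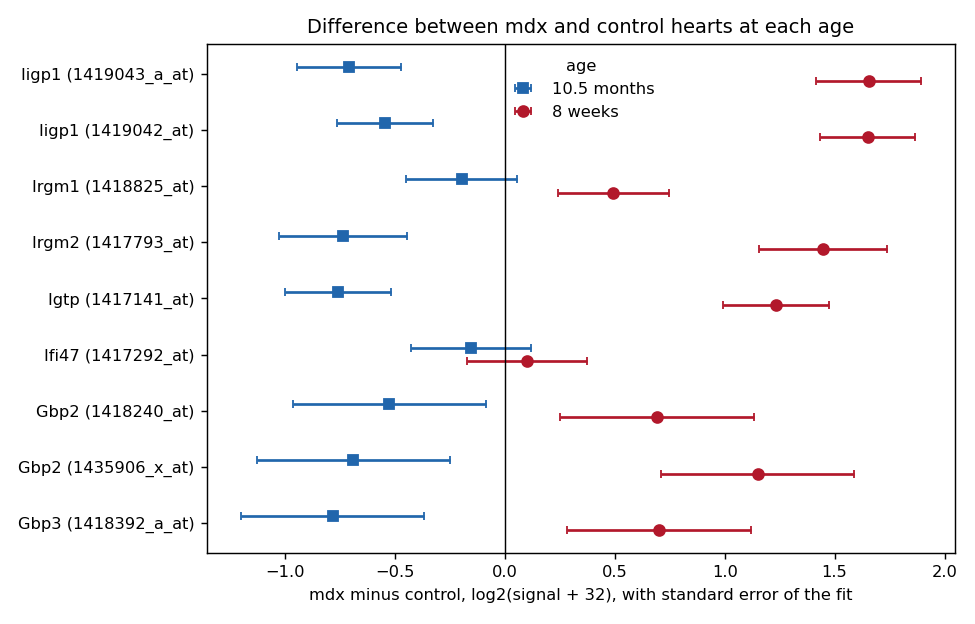
Difference between mdx and control hearts for each member probe set on the log2(signal + 32) scale (horizontal axis), with squares for 10.5 months, circles for 8 weeks and bars for the standard error of the fit. All squares lie left of 0 and all circles right of it, and both values of Ifi47 are within 1 standard error of 0.

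Age separated the mdx hearts more than the control hearts, described without a test because both comparisons use the 8-week arrays. In mdx hearts all 7 genes were lower at 10.5 months than at 8 weeks, with a median log2 difference of -1.42, and in control hearts 5 of 7 were lower, with a median of -0.26. Over all tested probe sets the medians were 0.00 in mdx and 0.01 in control hearts, and 49.7% and 52% of probe sets were higher at 10.5 months. Of these 14932 probe sets, 814 were called higher and 892 lower at 10.5 months in mdx hearts (limma, adjusted p below 0.05). In control hearts 14 were called higher and 8 lower. A larger age difference in mdx hearts was thus not particular to the GTPase genes. Irgm2 averaged 269.3 ± 64.4 in mdx hearts at 10.5 months and 2378 ± 865 at 8 weeks (SD, n = 3 each), a 7.72-fold lower fitted signal at the later age, and its control hearts differed 1.70-fold in the same direction. For Iigp1 the brighter probe set was 7.51-fold lower at 10.5 months in mdx hearts and 1.46-fold lower in control hearts. Igtp was 6.14-fold lower in mdx hearts and 1.54-fold lower in control hearts. Gbp3 went the opposite way in control hearts, where its signal was 313.2 ± 24.8 at 10.5 months and 235.6 ± 77.0 at 8 weeks (SD, n = 3 each), a log2 difference of 0.40. The order of the group means, by the brightest probe set, was the same for Iigp1, Irgm2, Igtp, Irgm1 and Gbp2, with mdx at 10.5 months lowest, then control at 10.5 months, control at 8 weeks and mdx at 8 weeks. All 3 neighbours in that order were apart on every array for Irgm2 alone. Igtp overlapped only between mdx and control hearts at 10.5 months, and Iigp1 only between the control hearts of both ages. For Irgm1 and Gbp2 each group overlapped the next. The means of Ifi47 lay between 418.1 and 484.8, with all neighbours overlapping, and for Gbp3 the control hearts of the later age lay above those of the earlier one.

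The members differed in how they moved from array to array. Mdx replicate 2 at 8 weeks was the lowest array of its group for 8 of 9 probe sets, above all controls for 4 and below all controls for 3. Replicates 1 and 3 of that group were above all controls of their age for 9 of 9. Among control hearts at 10.5 months, replicate 1 was lowest for 8 of 9 probe sets. Without it the log2 difference at that age was -1.08 for Igtp (limma, adjusted p = 0.16) and -0.92 for the brighter probe set of Iigp1. Other control arrays moved these values the opposite way. Igtp had -0.54 without control replicate 3 (limma, adjusted p = 0.978), and Iigp1 had -0.52 without control replicate 2 (adjusted p = 0.845). In the mdx hearts at 10.5 months no array stood apart in this way, and replicates 1, 2 and 3 were below all controls for 7, 7 and 6 probe sets. Without the 4 arrays of wide signal range all 9 probe sets had the same sign as with them at both ages, with differences of -0.97 for Gbp3 to -0.24 for Irgm1 at 10.5 months. The 8-week values, which then rest on mdx replicate 3 alone, were 0.44 for Ifi47 to 1.94 for the second probe set of Iigp1, and those of Ifi47, both probe sets of Gbp2 (1.45 and 1.85), Gbp3 (1.79) and Irgm1 (1.10) were over 1.5 times as large as with all arrays. Without the 2 arrays of raised control ratio, Gbp2 had 0.30 and Ifi47 -0.04 at 8 weeks.

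**Figure D3:**
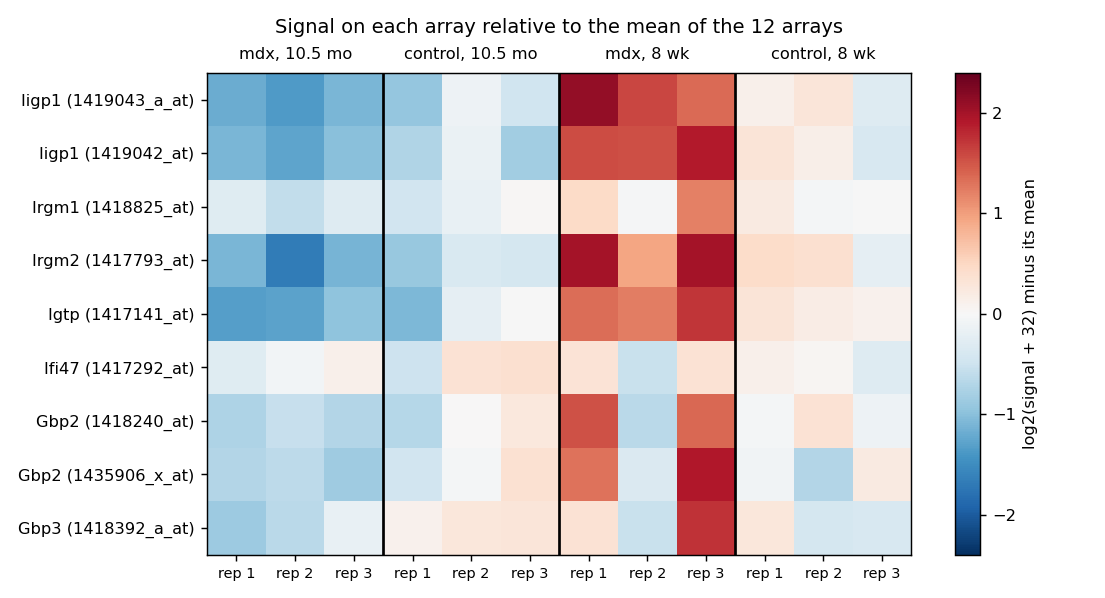
Log2(signal + 32) of each member probe set (rows) on each array (columns) minus the probe set's mean over the 12 arrays, red above and blue below that mean. The 8-week mdx arrays of Iigp1, Irgm2 and Igtp are red throughout, and replicate 2 of that group is pale or blue in the guanylate-binding genes and Ifi47.

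Across the 12 arrays the signals of the 7 genes correlated pairwise with a median Pearson r of 0.729 (21 pairs, 0.234 to 0.965), a description over points that share their group. The closest pairs were Igtp with Irgm2 at 0.965 and Irgm2 with Iigp1 at 0.963. After the group means were taken off, the median was 0.637. Gbp3 with Irgm1 was then closest at 0.900, and Gbp3 with Iigp1 had -0.132. Irgm2 with Gbp2 was above the median both ways, at 0.818 across the arrays and 0.795 within groups.

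Cell type markers were read beside these values. At 8 weeks the summed signal of 6 atrial myocyte markers was 12098 to 13051 in mdx hearts and 4446 to 6460 in control hearts, without overlap. At 10.5 months it was 11929 to 18309 in mdx hearts and 5061 to 23026 in control hearts. Of the 5 atrial markers tested, mdx was higher for 5 at 8 weeks and lower for 4 at 10.5 months, with median log2 differences of 0.93 and -1.65 and none called. Nppa, the gene of atrial natriuretic peptide, made up most of the sums. It averaged 14630 ± 3307 in mdx and 9267 ± 4221 in control hearts at 10.5 months, and 10290 ± 791 in mdx and 4343 ± 825 in control hearts at 8 weeks (SD, n = 3 each). The 4 markers that were lower in mdx hearts at 10.5 months were Sln, Myl4, Myl7 and Bmp10, which the sums do not show. Apart from Nppa at the later age, these markers differed in the same directions as the GTPase genes. At 10.5 months the groups overlapped for every atrial marker tested. Of the 10.5-month controls, replicate 1 had the highest atrial sum (23026) and the lowest GTPase signal (-0.412, mean log2 deviation from the group). Replicate 3 had the lowest sum (5061) and the highest GTPase signal (0.229). In 8-week controls replicate 3 had the highest sum and the lowest GTPase signal. In each mdx group replicate 3 was highest for both. The part of these markers in the GTPase values was not tested. Macrophage markers, 16 of 16 on the array, summed to 14396 to 23443 in mdx hearts and 12238 to 16936 in control hearts at 10.5 months. At 8 weeks they summed to 15802 to 17354 in mdx hearts and 13471 to 16831 in control hearts. Of the 15 tested, 14 were higher in mdx hearts at 10.5 months (median log2 difference 0.25), where the GTPase genes were lower, and none was called at either age.

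T and NK cell markers, 14 on the array, summed to 1271 to 1751 in mdx hearts and 1701 to 2012 in control hearts at 10.5 months, and to 1868 to 2743 in mdx hearts and 1474 to 2179 in control hearts at 8 weeks. Only 5 of them passed the filter, and the T cell receptor genes Cd3d and Cd3e stayed at or below 18.4 and 51.4 on all arrays. Zap70, at 455 to 1630 over the 12 arrays, was the brightest of the list and weighs heavily in its sums. Markers of B cells, 5 on the array, summed to 491 to 586 in mdx hearts and 427 to 488 in control hearts at 10.5 months. At 8 weeks they summed to 290 to 440 in mdx hearts and 379 to 471 in control hearts. Only 3 of the 5 passed the filter, and the highest signal of any was 188, for Ms4a1, so these sums add dim signals. Of 12 endothelial markers, 9 at 10.5 months and 10 at 8 weeks were lower in mdx hearts, with none called, and their sums were 10669 to 12872 in mdx hearts and 12586 to 13486 in control hearts at 10.5 months, and 11626 to 14047 in mdx hearts and 13337 to 16321 in control hearts at 8 weeks. The part of these cell types in the GTPase values was not tested.

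Other genes of the pathway were read from gene lists. Of 21 further GTPases listed, Gbp6 and Gbp7 passed the filter. Gbp6 read 461, 356 and 382 in mdx hearts and 274, 508 and 520 in control hearts at 10.5 months, and 1280, 1127 and 1859 in mdx hearts and 990, 995 and 611 in control hearts at 8 weeks. The 8-week groups did not overlap, but the difference of 0.70 ± 0.26 did not pass (limma, adjusted p = 0.188). Gbp2b, Gbp8, Mx1 and Mx2 were below the filter, as was Ifng, the gene of interferon-gamma itself, whose signal ranged from 16.3 to 88.2 over the 12 arrays.

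Among 28 tested effector genes of the interferon response, 15 were higher and 13 lower in mdx hearts at 10.5 months, with none called and a median log2 difference of 0.01. At 8 weeks 23 were higher and 5 lower, with a median of 0.30, and 2 were called, beside 2.3% of all probe sets called at that age. They were Ifi27l2b, an interferon-induced gene of the Ifi27 family, and Trim30a, a tripartite-motif protein that dampens Toll-like receptor signalling. Ifi27l2b read 256, 283 and 440 in mdx hearts and 73, 79 and 85 in control hearts at 8 weeks. It rose by 1.66 ± 0.26 on the log2 scale (limma, adjusted p = 0.00979), and at 10.5 months its difference was 0.05 ± 0.26. Its mean was 326.2 in 8-week mdx hearts and 73.3 to 79.0 in the other groups, so it passed the filter only through the 8-week mdx hearts. The 10.5-month difference is thus between dim groups, where this scale understates changes. Its probe set carries the same suffix as the second probe set of Gbp2, so some probes may also match other transcripts. Trim30a read 636, 595 and 584 in mdx hearts and 351, 390 and 282 in control hearts at 8 weeks, a rise of 0.78 ± 0.17 (limma, adjusted p = 0.0383). That call was lost with any 1 of the 8-week arrays left out other than control replicate 2, and with control replicate 2 or 3 at 10.5 months left out, where the adjusted p lay between 0.05 and 0.135. It was also lost with the probe sets of the gene averaged (0.50, limma, adjusted p = 0.14), with a replicate block or array weights (0.0673 each), with only the 8-week arrays fitted (0.147), and without the 4 arrays of wide signal range (0.129) or the 2 of raised control ratio (0.0889). Of the 28 effectors, 10 had all mdx arrays above all controls at 8 weeks, beside 9.51% of all probe sets, among them Cxcl10, Ifit1, Ifit3, Oasl2 and Zbp1, none of them called. Cxcl10, like Ifi27l2b, was tested only because of that group, with a mean of 227.6 there and 61.5 to 65.4 in the other groups. The 3 mdx arrays were widely spread for Cxcl10 (SD 226.8) and for Ifit3 (1091 ± 790, SD). In 1 effector, Ifitm2, all mdx arrays were below all controls at that age (-0.52 ± 0.18, limma, adjusted p = 0.159). Cxcl10, Ifit1, Ifit3, Oasl2, Zbp1 and Ifitm2 were named after their values were seen.

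The remaining lists gave no call at either age. Of 12 interferon-gamma signalling genes, 5 were higher and 7 lower in mdx hearts at 10.5 months and 8 higher and 4 lower at 8 weeks. The smallest p of this list belonged to Ifngr2, a receptor subunit, at 10.5 months (0.22 ± 0.23, limma, adjusted p = 0.863) and to the kinase gene Jak2 at 8 weeks (0.48 ± 0.13, adjusted p = 0.0747). Of 15 type I interferon signalling genes, 9 were higher and 6 lower at 10.5 months, and 11 higher and 4 lower at 8 weeks. There the smallest p was that of Mavs at 10.5 months (-0.37 ± 0.24, limma, adjusted p = 0.768) and of Sting1 at 8 weeks (0.46 ± 0.19, adjusted p = 0.217), both adaptors of nucleic acid sensing. Antigen presentation by MHC class I and the immunoproteasome had 1 gene higher and 9 lower at 10.5 months, and 4 higher and 6 lower at 8 weeks, led by the peptide transporter subunits Tap1 (-0.38 ± 0.24, limma, adjusted p = 0.762) and Tap2 (-0.41 ± 0.14, adjusted p = 0.14). In the MHC class II list of 5 tested genes, 2 were higher and 3 lower at 10.5 months, and 4 higher and 1 lower at 8 weeks. H2-Eb1 had the smallest p at 10.5 months (-0.32 ± 0.20, limma, adjusted p = 0.752). At 8 weeks it was H2-DMa, the 1 lower gene (-0.26 ± 0.17, limma, adjusted p = 0.448). Autophagy genes were included because Irgm proteins act with that machinery, and 12 of 17 were lower in mdx hearts at each age. Ulk1 (-0.50 ± 0.20, limma, adjusted p = 0.666) led them at 10.5 months and Atg7 (-0.44 ± 0.23, adjusted p = 0.343) at 8 weeks.

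**Figure D4:**
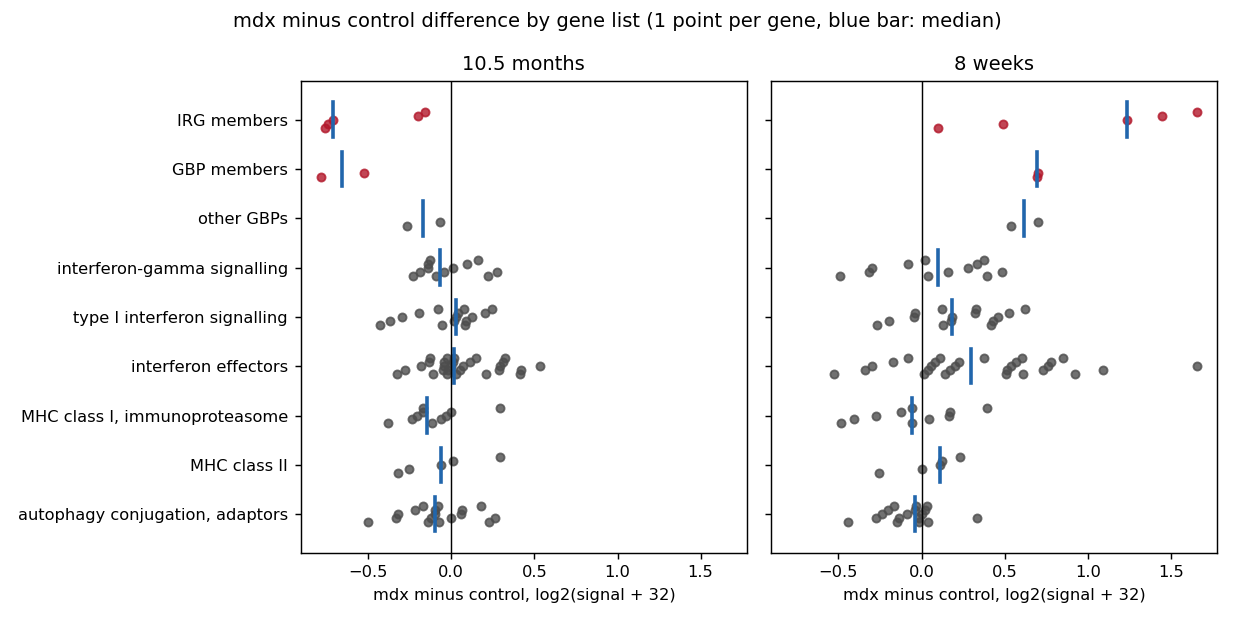
Difference between mdx and control hearts on the log2(signal + 32) scale for each gene (points, brightest probe set) of the member families (red) and of 7 other lists (grey), at 10.5 months on the left and 8 weeks on the right, with a blue bar at each list's median. The medians of the members lie at -0.71 and -0.66 on the left and at 1.23 and 0.70 on the right, and those of the other lists between -0.17 and 0.62.

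The genes most like the 7 were sought among 8708 others by Pearson r over the 12 arrays between a gene's log2 signal and the mean of the members' standardised log2 signals. Gbp7, a further guanylate-binding protein, came first with r = 0.934 (Spearman rho 0.937), and r = 0.905 remained after the group means were taken off. Its signal was 204, 238 and 378 in mdx hearts and 219, 353 and 439 in control hearts at 10.5 months, and 748, 382 and 1046 in mdx hearts and 482, 641 and 295 in control hearts at 8 weeks, so it shared the low reading of mdx replicate 2. Next came Polk, a DNA polymerase of translesion synthesis (0.926), Acox2, a peroxisomal oxidase (0.924), and Cd180, a Toll-like surface receptor of B cells and macrophages (0.921). Haus4 (0.920), Pikfyve (0.911), Mcrs1 (0.908) and Msc (0.895) completed the 8. None of the 8 passed the test at 10.5 months, and Msc, a transcription factor of muscle and B cells, had the lowest adjusted p there (-0.53 ± 0.17, limma, adjusted p = 0.587). Ranked within groups instead, the first 8 held only Gbp7 of these, and they began with Padi2 (0.957), Slfn4 (0.951) and Pcsk7 (0.927).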

How the data were processed

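The deposited values were linear intensity for 22690 probe sets on each array, already scaled by the authors, since the trimmed mean (2% off each end) was 1500.6 to 1500.9 on every array. The labels name only the standard protocol of Affymetrix, and the probe summary software is not given in the sources used here. Gene names came from the platform annotation, which gave 20393 probe sets 1 gene, 691 several (not named) and 1606 none, and 20364 symbols were matched by gene ID. Arrays were rescaled from the deposited values to a trimmed mean of 500, and log2(signal + 32) was analysed. The 64 control probe sets were left out, and a mean signal of at least 100 over the 12 arrays was required. A fold on this scale understates changes of dim genes. A model of group means was fitted to the 12 arrays together with limma 3.58.1 under R 4.3.3 (8 residual and 5.2 prior degrees of freedom), and an adjusted p (Benjamini-Hochberg) below 0.05 was called. At 10.5 months the SD of log2 signal within groups had a median of 0.193 in mdx and 0.147 in control hearts. At 8 weeks it was 0.25 and 0.202. The shared spread thus tends to be too small for many probe sets at 8 weeks. For members spread widely among the 8-week mdx arrays, such as Gbp2 and Gbp3, it enlarges the SE at 10.5 months. The brightest probe set stood for a gene. Named were all members, from each list up to 4 called genes per age or else the one with the smallest p, and the 8 genes most like the members. The members and lists were chosen with earlier results of these data known. Array number limits precision, and scripts were tested on simulated data.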

Additional observations from a re-analysis of the deposited data

Results flagged for a closer look

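For 3 probe sets every mdx array lay above every control array at 8 weeks and below every control array at 10.5 months. The mdx difference at 10.5 months minus that at 8 weeks was -2.37 on the log2 scale for the brighter probe set of Iigp1 and -2.20 for its second one. For Irgm2 it was -2.18. These differences were not tested, because the genes were chosen with the 8-week arrays in view.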

How the results depend on the processing

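Over 25 other settings, no member probe set passed the test at 10.5 months. Every recomputed member difference at that age kept its sign, and that of Ifi47 shrank to 0.00 without control replicate 3. The members' median at 10.5 months lay between -0.77 and -0.60 under other settings and between -0.85 and -0.52 with 1 array left out. At 8 weeks 218 of 223 differences kept their sign, and the rest were Ifi47, at 0.10 in the report, -0.01 with array weights, -0.05 to 0.39 with 1 array left out (below 0 for 3 of them) and -0.04 without the 2 arrays of raised control ratio. The median at 8 weeks, 0.70, was 1.46 without the 4 arrays of wide signal range, which leaves 1 mdx array whose spread is taken from the other groups, and 0.38 to 1.33 with 1 array left out. The settings without these 4 or 2 arrays were chosen after seeing the data.

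Counts of called probe sets moved far more. At 10.5 months the 7 calls became 3 with a replicate block, 110 with array weights, 4 with probe sets averaged per gene, 3 without the 4 wide-range arrays, 1 without the 2 arrays of raised ratio, and 1 to 12 with 1 array left out (1 or 2 without control replicate 1 or 2 or mdx replicate 2 or 3 of that age, 12 without mdx replicate 3 at 8 weeks). At 8 weeks the 343 calls became 176 with a replicate block, 191 with array weights, 193 with probe sets averaged per gene, 23 when only the arrays of that age were fitted, and 42 to 308 with 1 array left out, lowest without control replicate 3 (42) and control replicate 1 (95), and 161 to 212 without mdx replicate 3 of that age or, at 10.5 months, mdx replicate 2 or any control array. Trim30a was called in 12 of 25 settings and Ifi27l2b in all 24 that tested it. The replicate numbers showed no clear pairing of mdx with control arrays of the same age. Same-numbered arrays deviated together with correlations of -0.129 to 0.135, and 1 of 6 correlated best with its own number. Pairing across ages was not examined. Of the 8 genes most like the members, 1 was among the first 8 within groups and 3 to 6 remained with 1 array left out.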

Other observations

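A probe set annotated to a pair of genes of this kind was left out of the members and is not named here. It read 507.7, 460.4 and 630.2 in mdx hearts and 458.2, 928.5 and 853.6 in control hearts at 10.5 months. At 8 weeks it read 1569.8, 793.7 and 1907.4 in mdx hearts and 826, 846.3 and 662.5 in control hearts. The groups overlapped at both ages, and mdx replicate 2 at 8 weeks was again the lowest of its group.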
